A study of Homo sapiens with 6 samples.

Results

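The CHCHD family was followed through RNA sequencing of human forebrain organoids, cell aggregates that organise themselves into tissue resembling the dorsal forebrain. The members were CHCHD2, CHCHD3, CHCHD4, CHCHD5, CHCHD6, CHCHD7 and CHCHD10, found by symbol as 7 of the 18056 genes in the deposited table. CHCHD1 also carries the family name but was not in the member list, so it enters no family count or sum and stands with the other proteins of the cysteine motif. CHCHD2 was picked because its p-value for Aβ42 against vehicle was among the smallest of all genes, with a lower level after Aβ42, and the other 6 members were picked by family name. The values of CHCHD2 in that contrast are therefore a description and carry no test. All organoids were grown from the wild-type human line DYR0100, an established line of induced pluripotent stem cells, so the results describe 1 line. One group of 3 libraries received vehicle and the other group of 3 received 5 µM Aβ42, a peptide cut from the amyloid precursor protein that aggregates readily. Treatment lasted 6 days, and the labels place every library in 1 batch. The series text calls the libraries of a group independent biological replicates without saying whether they were separate cultures or differentiations, so p-values measure the spread between these libraries.

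CHCHD proteins are small nuclear-encoded proteins whose paired cysteines form disulfide bonds in the space between the mitochondrial membranes. CHCHD4 drives this folding as the import oxidoreductase MIA40, and most of the others are its substrates. CHCHD2 and CHCHD10 are close relatives linked to respiration and to the stress response of mitochondria, and inherited variants of them are known from Parkinson disease and from motor neuron disease with frontotemporal dementia. CHCHD3 and CHCHD6 are MIC19 and MIC25 of MICOS, the complex that holds the cristae of the inner membrane in shape.

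The libraries held 16465390 to 16742958 estimated counts each. The markers of dorsal forebrain tissue were present: all 5 dorsal forebrain genes, all 7 radial glia genes and all 10 neuronal genes had a mean of at least 1 TPM, while 5 of 8 microglial genes (C1QA, C1QB, C1QC, TYROBP and TREM2) were at 0 counts throughout. Of 5 genes of pluripotent cells, 1 (POU5F1) reached a mean of 1 TPM. Over 12186 genes, the chi-square of the counts was 3.16, 7.70 and 4.58 per gene between Aβ42 replicate 2 and vehicle replicates 1, 2 and 3, and 9.40 and 8.48 between Aβ42 replicate 2 and Aβ42 replicates 1 and 3. Aβ42 replicate 2 thus lay nearer to each vehicle library than to its own group, and the values of CHCHD2 are given with and without it.

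CHCHD2 was the most abundant member and lay lower in every Aβ42 library. Its gene (Entrez gene ID 51142) lies on the minus strand of chromosome 7 at 56101573 to 56106476 in RefSeq's GRCh38.p14. CHCHD10 (400916), its relative, lies on the minus strand of chromosome 22 at 23765834 to 23767972. The 250 bases before the start of both genes are printed 5′ to 3′ on the gene's strand, from RefSeq on GRCh38.p14, because they are the promoter-side sequence of the member with the largest difference between groups by p-value and of its relative. Capitals mark the motifs searched on both strands: TGACG (the core of the cyclic AMP response element, CRE), CCGGAAG (ETS factors), GGGCGG (the GC box), CCAAT (the CCAAT box) and TGATGCAA (ATF4 with a C/EBP partner). None of these overlap in the stretches shown.
CHCHD2, chr7:56106477-56106726: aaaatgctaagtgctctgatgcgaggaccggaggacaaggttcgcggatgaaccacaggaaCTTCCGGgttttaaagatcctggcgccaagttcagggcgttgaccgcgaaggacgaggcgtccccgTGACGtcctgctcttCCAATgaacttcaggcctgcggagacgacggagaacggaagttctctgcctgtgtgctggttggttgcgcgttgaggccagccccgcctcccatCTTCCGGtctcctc
CHCHD10, chr22:23767973-23768222: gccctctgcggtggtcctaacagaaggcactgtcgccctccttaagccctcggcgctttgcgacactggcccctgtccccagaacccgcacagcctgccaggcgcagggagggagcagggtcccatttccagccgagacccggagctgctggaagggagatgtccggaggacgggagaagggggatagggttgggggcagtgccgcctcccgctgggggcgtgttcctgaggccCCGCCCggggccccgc

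The CHCHD2 stretch held 2 ETS matches, both on the opposite strand, with 1 CRE core and 1 CCAAT box. Of 35116 promoter windows of this length, 8.52% held at least 1 ETS match, 21.2% a CRE core and 32% a CCAAT box. The CHCHD10 stretch held 1 match, a GC box, which 42.6% of windows share. Neither stretch held the ATF4 composite letters, which occur in 0.772% of windows. Promoter windows were found for 6 of the 7 members. A match of letters is a description and not a site of binding.

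Per gene length, the order of the members was the same in both groups. CHCHD2 stood first at 319.1 ± 23.6 TPM in vehicle (mean ± SD, n = 3 in this and all later values), which put it above 97.6% to 98.0% of listed genes in the vehicle libraries. CHCHD6 followed at 72.0 ± 2.06 TPM, CHCHD3 at 63.5 ± 1.75 TPM and CHCHD7 at 56.6 ± 2.59 TPM. These 3 formed a middle tier. CHCHD5 was at 35.5 ± 5.56 TPM, CHCHD4 at 16.9 ± 1.47 TPM and CHCHD10 at 13.5 ± 2.60 TPM. No range overlapped that of the next member in the order, in vehicle or after Aβ42. The closest pair was CHCHD4 and CHCHD10 in vehicle, where the lowest CHCHD4 value (15.44 TPM) was barely above the highest CHCHD10 value (15.36 TPM).

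**Figure D1:**
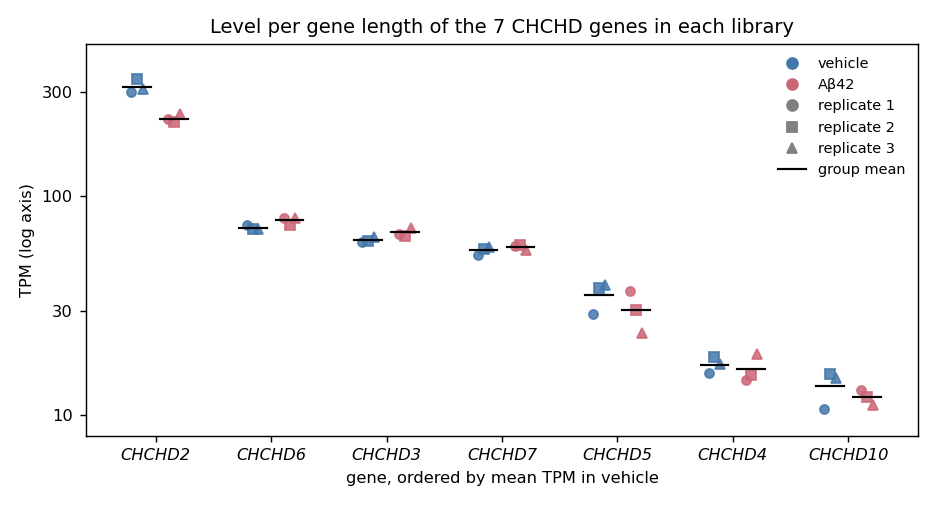
TPM of the 7 CHCHD genes on a log axis, by library (vehicle blue, Aβ42 red, marker shape for the replicate number), with a black line at each group mean. CHCHD2 lies above the others in all 6 libraries, and its Aβ42 points (218.5 to 239.0 TPM) lie under its vehicle points (300.1 to 345.5 TPM).

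In the vehicle libraries, replicates 1 to 3, CHCHD2 was read at 970, 1080 and 968 counts, and after Aβ42 at 745, 730 and 814 counts. As CPM after TMM scaling (counts relative to a library size adjusted for composition) these were 58.3, 65.7 and 59.0 in vehicle and 45.4, 43.4 and 48.8 with Aβ42. The groups did not overlap: the highest Aβ42 library was replicate 3 and the lowest vehicle library was replicate 1. Aβ42 replicate 2, the library nearest to vehicle over all genes, had the lowest CHCHD2 level of the 6. The means were 61.0 ± 4.07 and 45.9 ± 2.76 CPM, a log2 fold change of -0.41 ± 0.07 (SE) or a 1.33-fold lower level. Counting error alone was at most 3.70% in a library.

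These are the values that chose CHCHD2. By p-value in edgeR's quasi-likelihood test it stood at rank 10 of 13842 tested genes and at rank 5 of those lower, with an adjusted p-value of 0.0684. No gene reached an adjusted p-value of 0.05 in that fit (0% called), and 3302 genes (23.9%) had one under 0.05 before adjustment. The series text names no pairing of the libraries. With the replicate number as an assumed block, the edgeR adjusted p-value of CHCHD2 was 0.00126, against 7.05% of genes called lower. Without Aβ42 replicate 2, and with no block, it was 0.00279 at a log2 fold change of -0.37. With any other library left out, the log2 fold change was between -0.46 and -0.36 and the adjusted p-value was above 0.05 (0.0827 to 0.296). Of the tested genes, 610 (4.41%) had a more negative log2 fold change. Among the 4368 genes at least as high as CHCHD2 in vehicle CPM, 34 did.

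CHCHD2 made up 55.0%, 56.8% and 54.0% of the family's summed TPM in the vehicle libraries and 45.5%, 45.9% and 47.7% after Aβ42. Every Aβ42 share lay under every vehicle share. The share holds the CHCHD2 values that chose the gene, so this is no separate result. The other 6 members together summed to 245.3, 263.2 and 265.7 TPM in vehicle and 270.6, 257.7 and 262.5 TPM with Aβ42, ranges that overlapped. The ratio of CHCHD2 to CHCHD10 per gene length was 21.2 to 28.4 in vehicle and 17.4 to 21.6 with Aβ42, also with an overlap.

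Some lists of cell type markers also differed between the groups. All 11 proliferation genes had negative log2 fold changes, and their summed level was 648.7 to 745.2 TPM in vehicle and 422.0 to 597.9 TPM with Aβ42. The 6 intermediate progenitor genes summed to 349.4 to 392.1 TPM and 248.7 to 300.5 TPM, and the 10 neuronal genes to 4213 to 4539 TPM and 3935 to 4073 TPM. With the block, 10 proliferation, 4 intermediate progenitor and 4 neuronal genes were called lower, and 0 of each were called higher. Over all tested genes, 7.05% were called lower and 7.12% higher with the block. Positive log2 fold changes were seen in 1 intermediate progenitor gene and 3 neuronal genes. The 6 choroid plexus genes summed to 3347 to 7570 TPM in vehicle and to 2838 to 6662 TPM with Aβ42, mostly from TTR, with the number 2 library highest in each group. Of these genes 5 had negative log2 fold changes (median -0.49), and 2 were called lower with the block. The 7 radial glia genes summed to 7643 to 7960 and 7891 to 8246 TPM, at a median log2 fold change of 0.07, and 0 were called higher and 3 lower with the block. The 5 astrocyte genes summed to 54.4 to 81.9 TPM in vehicle and to 40.6 to 62.0 TPM with Aβ42 (median log2 fold change -0.60), with 2 called lower with the block. In this list ALDH1L1 went the other way (0.33, not called), with all Aβ42 libraries above all vehicle libraries. The summed dorsal forebrain and interneuron genes overlapped between the groups, and 0 genes of either list were called with the block. Their median log2 fold changes were 0.03 and 0.45, and all 5 tested interneuron genes were positive. The part of these markers in the CHCHD2 difference was not tested. In these bulk samples fewer cells of a type and less RNA per cell cannot be told apart.

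The 2 MICOS members had higher values with Aβ42, and neither passed the test. CHCHD3 (Entrez gene ID 54927; chromosome 7, 132784870 to 133082090) was at 33.2, 32.8 and 34.2 CPM in vehicle and at 36.9, 35.6 and 39.8 CPM with Aβ42. CHCHD6 (84303; chromosome 3, 126704240 to 126960420) was at 20.9, 19.5 and 19.4 CPM in vehicle and at 22.9, 21.1 and 23.4 CPM with Aβ42. In both genes all Aβ42 libraries lay above all vehicle libraries, with Aβ42 replicate 2 the lowest of its group. Their log2 fold changes were 0.16 ± 0.07 and 0.17 ± 0.08 (SE), with edgeR adjusted p-values of 0.168 and 0.209. The 95% interval of CHCHD3 was 0.02 to 0.31. With the replicate block the adjusted values were 0.120 and 0.165. On the TPM scale the CHCHD6 groups overlapped, and those of CHCHD3 did not.

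CHCHD7 (79145, on chromosome 8), the relative of a yeast factor for cytochrome c oxidase assembly, was at 32.2, 33.7 and 34.4 CPM in vehicle and at 35.7, 36.0 and 35.4 CPM with Aβ42. The CPM values did not overlap, with vehicle replicate 3 and Aβ42 replicate 3 the closest pair. The log2 fold change was 0.09 ± 0.06, with a 95% interval of -0.04 to 0.23 and an edgeR adjusted p-value of 0.372, and on the TPM scale the groups overlapped.

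CHCHD4, the import receptor that oxidises the family's cysteines, showed no separation between groups. Its gene (131474) lies on chromosome 3 at 14112077 to 14124870. It was at 7.27, 8.39 and 7.87 CPM in vehicle and at 6.89, 7.25 and 9.30 CPM with Aβ42, so the Aβ42 group held both the lowest and the highest library. The log2 fold change was -0.0056 ± 0.14, with a 95% interval of -0.32 to 0.31 and an edgeR adjusted p-value of 0.984. Its sign changed in 5 of 20 alternatives.

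CHCHD5 and CHCHD10 were read at few counts, and only a large difference could have been seen. CHCHD5 (84269; chromosome 2, 112584447 to 112589040), a little-studied member, had 36 to 54 counts per library. Its values were 2.52, 3.16 and 3.23 CPM in vehicle and 3.29, 2.61 and 2.16 CPM with Aβ42. CHCHD10 had 27 to 38 counts per library, and was at 1.62, 2.31 and 2.20 CPM in vehicle and at 2.07, 1.90 and 1.80 CPM with Aβ42. The groups overlapped in both genes. Counting error alone reached 16.7% and 19.2% in the library with the fewest counts. The log2 fold changes were -0.15 ± 0.22 and -0.09 ± 0.23, with 95% intervals of -0.63 to 0.34 and -0.59 to 0.42 and edgeR adjusted p-values of 0.710 and 0.844. The interval of CHCHD10 holds the log2 fold change of CHCHD2 as well as 0, so a difference of that size in CHCHD10 was not detectable at this depth.

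**Figure D2:**
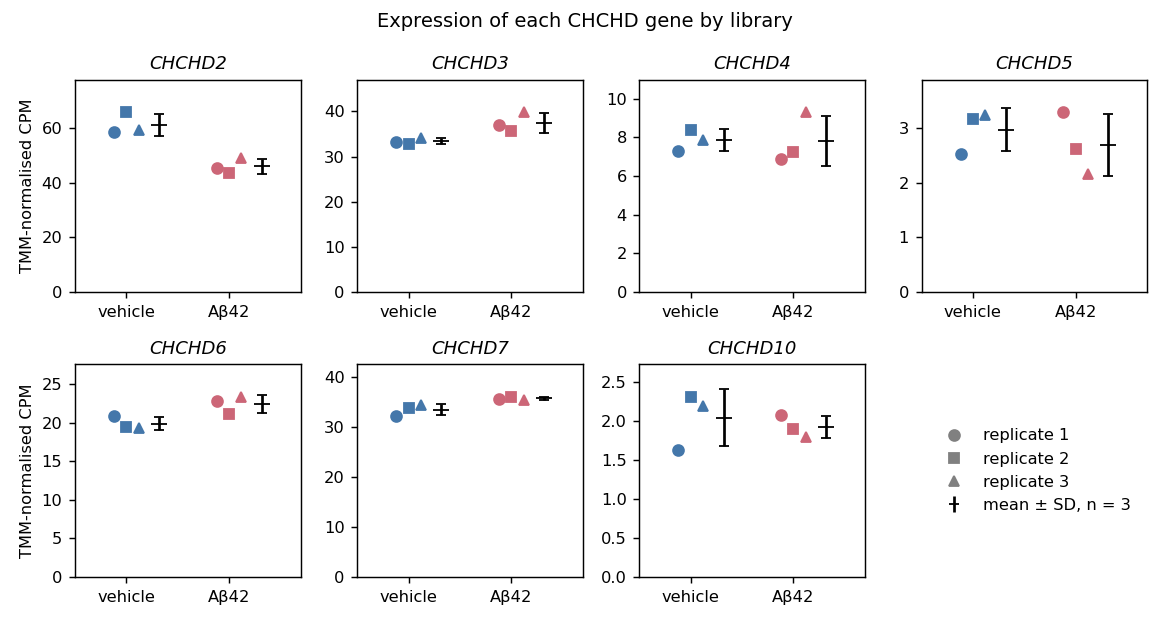
TMM-normalised CPM of each CHCHD gene in every library, 1 panel per gene with its own axis from 0, with marker shape for the replicate number and bars for mean ± SD (n = 3). The groups are apart in CHCHD2 (lower with Aβ42) and, by smaller gaps, in CHCHD3, CHCHD6 and CHCHD7 (higher), and they overlap in CHCHD4, CHCHD5 and CHCHD10.

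All 7 members passed the filter on low counts. In CPM, 3 members were higher without overlap and 1 was lower, where 13.6% and 13.4% of tested genes were. Before adjustment 2 members were higher and 1 lower at a p-value under 0.05, beside 12.4% and 11.5% of tested genes. Of these, CHCHD6 was at the threshold (edgeR unadjusted p-value 0.0499). Only 1 member instead of 3 was under it with DESeq2, TPM on filtered genes, and the length correction with or without the block. The same held without vehicle replicate 2 and without Aβ42 replicate 3. With no filter, RLE scaling or unfiltered TPM, 2 members were under it. Leaving out vehicle replicate 1, vehicle replicate 3 or Aβ42 replicate 1 also gave 2. With the block, 1 of the 7 members was called, beside 14.2% of tested genes. That member was CHCHD2, which was chosen for its small p-value. The median log2 fold change of the 7 was -0.0056, beside 0.0032 over all tested genes. So few members allow no statement about the family as a whole.

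**Figure D3:**
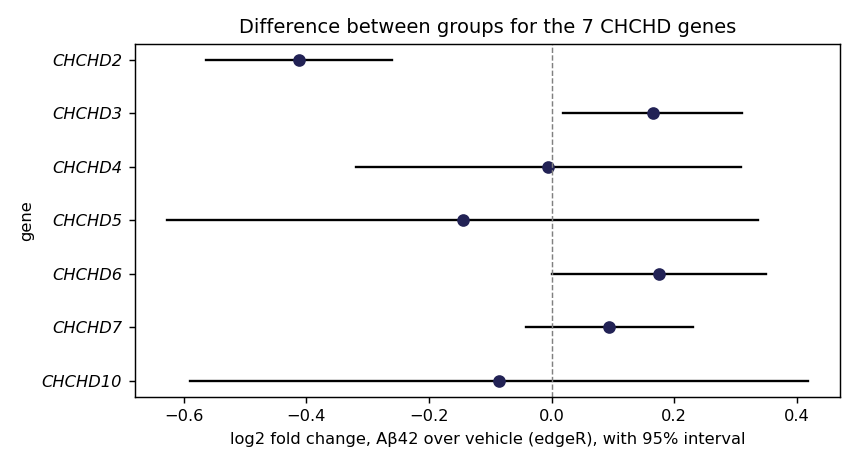
Log2 fold change of each CHCHD gene, Aβ42 over vehicle, from edgeR, with the 95% interval of that fit as a line and a dashed line at no difference. CHCHD2 (-0.41) lies farthest from 0, CHCHD3 and CHCHD6 lie above 0, and the intervals of CHCHD5 and CHCHD10 are the widest.

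The read counts of all 7 members were whole in all 6 libraries (42 of 42 values), while 82.3% of all listed genes had only whole values. No member's reads were thus visibly divided between genes. GENCODE 29 names 10 pseudogenes of CHCHD2, 4 of CHCHD4 and 3 of CHCHD3, and how reads shared with such copies were treated is not given in the sources used here, which leaves these levels uncertain. On the same strand, exons of CHCHD3 share 172 bases with a pseudogene and those of CHCHD5 share 206 with a noncoding gene. Exons of CHCHD10 share 218 bases with MMP11 on the opposite strand, and whether counting used strand is not stated.

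CHCHD2 has one of the shorter transcripts, at the 2.21 percentile of effective length (count per TPM) among tested genes. The median log2 fold change was 0.06 in the shortest 10% of genes and -0.04 in the longest 10%. A correction for this length trend moved the CHCHD2 log2 fold change to -0.48. Those of CHCHD3 and CHCHD6 became 0.13 and 0.12.

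The genes whose log2 CPM ran most like CHCHD2 over the 6 libraries, ranked among 11234 genes averaging at least 100 counts, were BCL7A (Pearson r = 0.995), PTPRO (0.990), SPSB4 (0.982), NEMF (0.978) and MTRNR2L1 (0.977). BCL7A belongs to a chromatin remodelling complex, PTPRO is a receptor tyrosine phosphatase and NEMF acts in ribosome quality control. Among the most opposite were ZNF692 (-0.987), POMGNT2 (-0.981), RAB3GAP2 (-0.981) and RSRP1 (-0.979). The groups did not overlap in any of the genes named here, which follows from ranking them against CHCHD2, whose groups were apart. The counts of NEMF and MTRNR2L1 were not whole in every library. Libraries of a group share treatment, and genes of a library share its depth, so the correlations are given without a p-value. Within the family r with CHCHD2 was -0.79 for CHCHD7, -0.75 for CHCHD6, -0.71 for CHCHD3 and between 0.30 and 0.32 for CHCHD4, CHCHD5 and CHCHD10.

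Genes that work with the members were read from lists written with earlier results of these data known. In none of the 6 lists did a gene pass the edgeR test without a block. With the block, the background was 7.12% of tested genes called higher and 7.05% called lower.

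Among 11 other genes of MICOS and of the bridge to the outer membrane that it joins, 0 were called higher and 1 lower with the block, DNAJC11 (-0.24, edgeR adjusted p-value 0.0433). Its values were 53.0, 51.7 and 51.9 CPM in vehicle and 39.4, 51.1 and 42.3 CPM with Aβ42, where Aβ42 replicate 2 stood close to vehicle. Its counts were not whole in every library. IMMT, the core subunit, was at -0.01, SAMM50 of the outer membrane at -0.02 and APOO at -0.26 (adjusted p-value 0.0507 with the block). The list had a median log2 fold change of -0.05, with 8 of 11 negative, so CHCHD3 and CHCHD6 (both positive) were on the other side of 0 from most of it.

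The disulfide relay list, with CHCHD4's partners and the small TIM chaperones that it oxidises, had 0 of 8 genes called in either fit and a median of -0.03. GFER, which passes electrons on from CHCHD4, was at -0.04 ± 0.10, and AIFM1, which binds CHCHD4, at 0.15 ± 0.07. AIFM1 was at 26.6, 27.1 and 27.4 CPM in vehicle and at 29.4, 28.8 and 31.6 CPM with Aβ42. These groups did not overlap, and the edgeR adjusted p-value was 0.223 without and 0.191 with the block.

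Of 16 other proteins with the same cysteine motif, 1 was called higher and 0 lower with the block, at a median of 0.07. COX6B1, a subunit of cytochrome c oxidase, was at 49.2, 51.2 and 43.6 CPM in vehicle and at 53.8, 58.9 and 58.8 CPM with Aβ42 (0.25 ± 0.07, edgeR adjusted p-value 0.0891 without and 0.0215 with the block). On the TPM scale the COX6B1 groups overlapped. UQCRH, a subunit of complex III, was at 0.12 and not called. CHCHD1, a subunit of the mitochondrial ribosome, had the smallest p-value among those with a negative value (-0.19, edgeR adjusted p-value 0.356 without the block), followed by COA4 (-0.12).

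Cytochrome c oxidase (complex IV) binds CHCHD2. Of its 10 other tested subunits, 3 were called higher and 0 lower with the block, with a median of 0.09 and 8 of 10 positive. COX7C was at 85.1, 86.0 and 87.2 CPM in vehicle and at 100.5, 96.2 and 111.1 CPM with Aβ42 (0.25 ± 0.06, edgeR adjusted p-value 0.0734 without and 0.00721 with the block). COX7A2 was at 70.3, 67.5 and 71.7 CPM and at 82.3, 77.2 and 82.7 CPM (0.21 ± 0.05, 0.0770 and 0.0190). NDUFA4, named because it is the remaining call, was at 0.19. COX4I2, the subunit gene for which CHCHD2 is known as a transcription factor, was at 0 counts in all 6 libraries. A floor of 3 counts per library was set for it, or 0.179 to 0.182 CPM, and no change under that floor was detectable.

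Among 19 known partners and regulators of CHCHD2 and CHCHD10, 0 were called higher and 1 lower with the block, at a median of 0.02. YME1L1, an inner membrane protease, was at 201.1, 202.8 and 209.8 CPM in vehicle and at 187.0, 187.8 and 174.5 CPM with Aβ42 (-0.16 ± 0.05, edgeR adjusted p-value 0.0979 without and 0.0490 with the block). Its counts were not whole in every library. LONP1, the matrix protease, was at 0.20 and BCL2L1, the apoptosis inhibitor that CHCHD2 binds, at -0.16. Neither was called in either fit.

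Mitochondrial stress is signalled through ATF4. Of 21 tested genes of this response, 6 were called higher and 1 lower with the block, with a median of 0.06 and 14 of 21 positive. ATF3 was at 30.7, 26.4 and 30.1 CPM in vehicle and at 35.8, 36.7 and 40.1 CPM with Aβ42 (0.37 ± 0.08, edgeR adjusted p-value 0.0691 without and 0.00353 with the block). DDIT3 was at 23.8, 18.8 and 22.4 CPM and at 31.6, 27.0 and 37.9 CPM (0.57 ± 0.13, 0.0734 and 0.000447). MTHFD2, the mitochondrial folate enzyme, was at -0.15 and PYCR1, a proline synthesis enzyme, at -0.18, and neither was called. In MTHFD2 all Aβ42 libraries lay under all vehicle libraries. FGF21, also listed, had 0 or 1 counts per library and was not tested. The 1 gene called lower was SLC7A11, a cystine transporter, at 66.7, 82.6 and 68.7 CPM in vehicle and 50.9, 74.2 and 46.5 CPM with Aβ42, and its groups overlapped. The cause of the calls in this list was not tested.

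**Figure D4:**
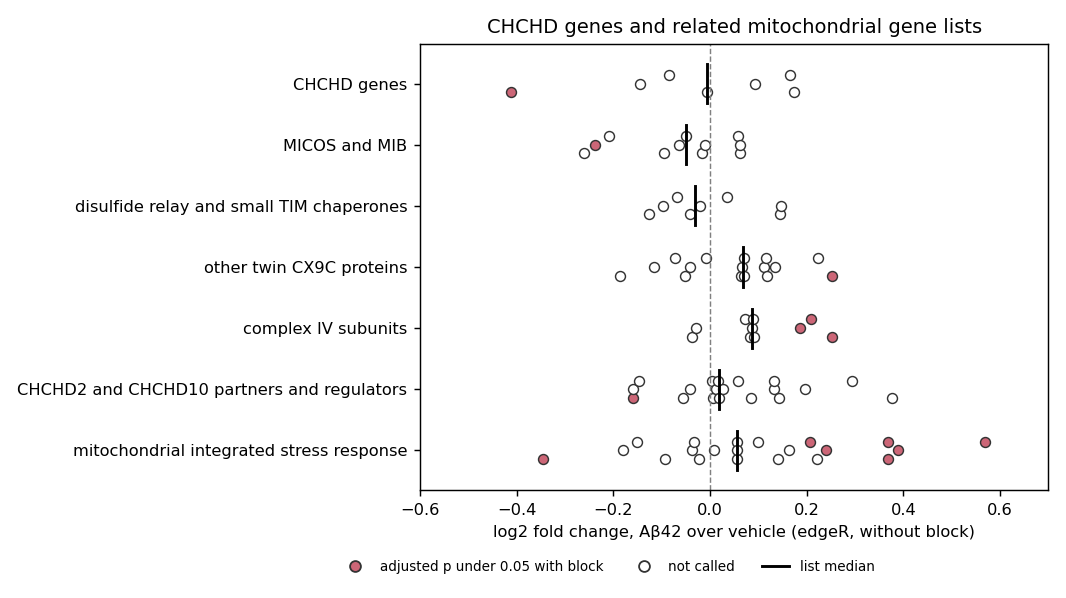
Log2 fold change of each tested gene, Aβ42 over vehicle, in the CHCHD family and 6 related gene lists, with the list median as a bar. Red points had an adjusted p-value under 0.05 with the replicate block: CHCHD2 and 2 others at the left in the upper rows and the partner row, 1 and 3 at the right among cysteine-motif and complex IV genes, and 6 higher and 1 lower in the stress response.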

How the data were processed

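The table the authors deposited gives a read count and a TPM per gene for 6 libraries. Per the labels, polyadenylated RNA and a stranded kit with PCR were used, with no molecular identifiers named, so intervals cover counting error and spread between libraries only. STAR 2.7.11b, featureCounts 2.0.6, FastQC and build GRCh38 are listed per the submitters' processing notes. As 86.9% to 87.5% of the deposited count values in a library were whole, they were treated as estimated counts and rounded. The deposited TPM values are scaled by the authors for gene length and library total.

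Genes were kept by filterByExpr of edgeR 4.0.16 (13842 genes), scaled by TMM and compared with edgeR's quasi-likelihood test (robust, two-sided, no block, R 4.3.3), Benjamini-Hochberg over all genes tested, threshold 0.05. SE is the size of the log2 fold change over the square root of F. Alternatives used limma 3.58.1, DESeq2 1.42.0, other scalings and filters, TPM, a length correction and each library left out. The fit was tested on simulated data. No simulated library was set nearer to the other group, as Aβ42 replicate 2 was here, so that case was not tested. The 7 members were named whatever their result. Of the related lists, all genes of lists with up to 12 genes could be named, and otherwise the 2 genes of lowest p-value on either side. Genes outside that rule were chosen after their values were seen. For 2 genes within the rule, values are not reported here. The members and lists were chosen with earlier results of these data known.

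Deviations from group means (12186 genes) correlated at 0.181, 0.388 and 0.129 between libraries of the same number, all above 0.1, so numbers were taken to pair the libraries. Between numbers 1 and 3 the values were 0.154 and 0.177, so these values do not tell numbers 1 and 3 apart. The series text names no block, so calls with the block rest on an assumed pairing. Differences from sampling alone were checked by chi-square, and the 6 libraries were kept as separate.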

Additional observations from a re-analysis of the deposited data

How the results depend on the processing

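Under 20 alternatives, CHCHD2 kept a negative log2 fold change (-0.48 to -0.36), and CHCHD3, CHCHD6 and CHCHD7 kept a positive and CHCHD5 a negative one. CHCHD2 passed an adjusted p-value of 0.05 in 6 of them and the other members in none. As CHCHD2 was chosen for its small p-value in these same libraries, its passes carry no test. The counts called moved from 0 to 360 genes with no filter on low counts, 814 with the DESeq2 Wald test, 2457 with sample quality weights, 1962 with the replicate block and 1992 with the replicate block and length correction, and in each of these 5 fits 1 member, CHCHD2, was called. Leaving out one library gave 0 to 3224 genes and 0 to 1 members, with calls only without Aβ42 replicate 2. The replicate block changed no other member's call. CHCHD4, at -0.0056, was 0.0096 under upper-quartile scaling and 0.041 with quality weights, and ran from -0.15 to 0.078 with one library left out. CHCHD10 then ran from -0.23 to 0.012 and CHCHD5 from -0.31 to -0.01. CHCHD7 ran from 0.05 to 0.12 over all alternatives. For these, the cause was not tested beyond the construction of each fit. Depth limits CHCHD5 and CHCHD10 most. Over all genes, the median log2 fold change lay between -0.04 and 0.02 over the alternatives.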
